A study of Drosophila melanogaster with 10 samples.

Results

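Rab, Arf and Arl proteins are small GTPases that act as the address labels of membrane traffic. Each cycles between a GTP-bound form that sits on a membrane and recruits effectors and a GDP-bound form that a GDP dissociation inhibitor can hold in the cytosol; exchange factors switch the protein on and GTPase activating proteins switch it off. Different members mark different steps, from the endoplasmic reticulum and Golgi through early, recycling and late endosomes to lysosomes and the plasma membrane. In the Malpighian (renal) tubule of the fly, an epithelium that secretes the primary urine, these steps carry transporters to and from the apical and basolateral membranes and build the storage vesicles that hold pigments and mineral concretions.

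The genes described here were taken by name. They are the genes whose current symbol begins with Rab, Arf or Arl followed by a digit, or RabX followed by a digit, and that have a probe set annotated to that gene alone. This gave 28 genes of 10844 named on the array. Of the 28, 24 encode GTPases (21 Rab and 3 Arl genes) and 4 encode other proteins with such names: Rab3-GEF, Rab3-GAP, Rab3GAP1 and Arl6IP1. The RefSeq gene table holds 42 GTPase genes that fit the names, and the other 18 could not be assigned a probe set here: Rab1, Rab4, Rab5, Rab6, Rab7, Rab8, Rab11, Rab21, Rab9D, Rab9Db, Rab9E, Rab9Fb, Arl1, Arl2, Arl4, Arf1, Arf4 and Arf6. The values below are therefore those of Rab and Arl genes, and no Arf gene is among them.

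RNA came from dissected Malpighian tubules (5 arrays) and from whole flies (5 arrays) of the Oregon R strain, both 7 days old as adults and of both sexes. No mutant, transgene or treatment was used. A tubule and a whole fly array that share a number, from 2 to 6, were taken here as a matched pair. The study's methods describe matched pairs of tubules and whole flies from the same culture. Each array stands for RNA of many pooled animals. Whole flies contain tubules themselves, and in RNA of a whole tissue or animal fewer cells of a type and less RNA per cell cannot be told apart.

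Signals are MAS 5.0 intensities on a linear scale, and values of several arrays are given in the order of pairs 2 to 6. For enrichment, the tubule signal was divided by the fly signal of its own pair and the 5 quotients were averaged (± SD), and a gene was called higher or lower at a limma adjusted p under 0.05 over all 13966 probe sets tested. Of genes of tubule identity and function, 10 of 10 measured were higher in tubule. Their summed signal was 22100 to 24879 in tubule arrays and 5365 to 6511 in whole fly arrays. The study reports several of them, among them Irk3, st and NaPi-T, as tubule-enriched on these same arrays. They are therefore no independent check of the labels. The methods describe the tubules as cut from the gut at the lower ureter to keep other tissue out. The summed signal of 13 midgut enzyme genes was 17888, 21698 and 14143 in tubule arrays 2, 3 and 5 and 1372 and 3726 in tubule arrays 4 and 6, against 44413 to 56033 in whole fly arrays (12 of 13 lower in tubule). For 14 testis genes the range was 456 to 1828 in tubule and 5929 to 12893 in whole fly (10 lower), for 10 accessory gland genes 130.0 to 4529 and 10280 to 16339 (10 lower), for 12 female germline genes 266 to 507 and 2655 to 4547 (11 lower), and for 9 muscle genes 686 to 1275 and 8432 to 9461 (9 lower). The 9 neuronal genes were near the bottom of the scale in both groups, at 57.6 to 122 in tubule and 127 to 180 in whole fly (4 lower).

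Of the 24 GTPase genes, 6 were higher in tubule (Rab32, Rab9, Rab39, Rab18, Rab2 and RabX6), 4 were lower (Rab10, Arl5, Rab40 and Rab23) and 14 did not pass. Over all probe sets, 16.8% were called higher and 36.3% lower (53.1% in either direction). The shares among the 24 genes were 25.0% higher and 16.7% lower. Their median log2 fold change was -0.08, against -0.32 over all probe sets, and 16 of the 24 lay above the median of all probe sets. Tubule and whole fly signals did not overlap in any of the 10 genes called; over all probe sets, 14.1% were without overlap with tubule higher and 29.6% with tubule lower. In every tubule array 14 of the 24 genes had a signal of at least 50, a limit set here because the values come without detection calls, and 13 had it in every whole fly array, against 29.2% and 39.0% of all probe sets. Among the 15 GTPase genes with a mean signal of at least 50, 5 were higher and 3 lower, and of 6125 such probe sets in all 30.4% were higher and 43.1% lower.

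**Figure D1:**
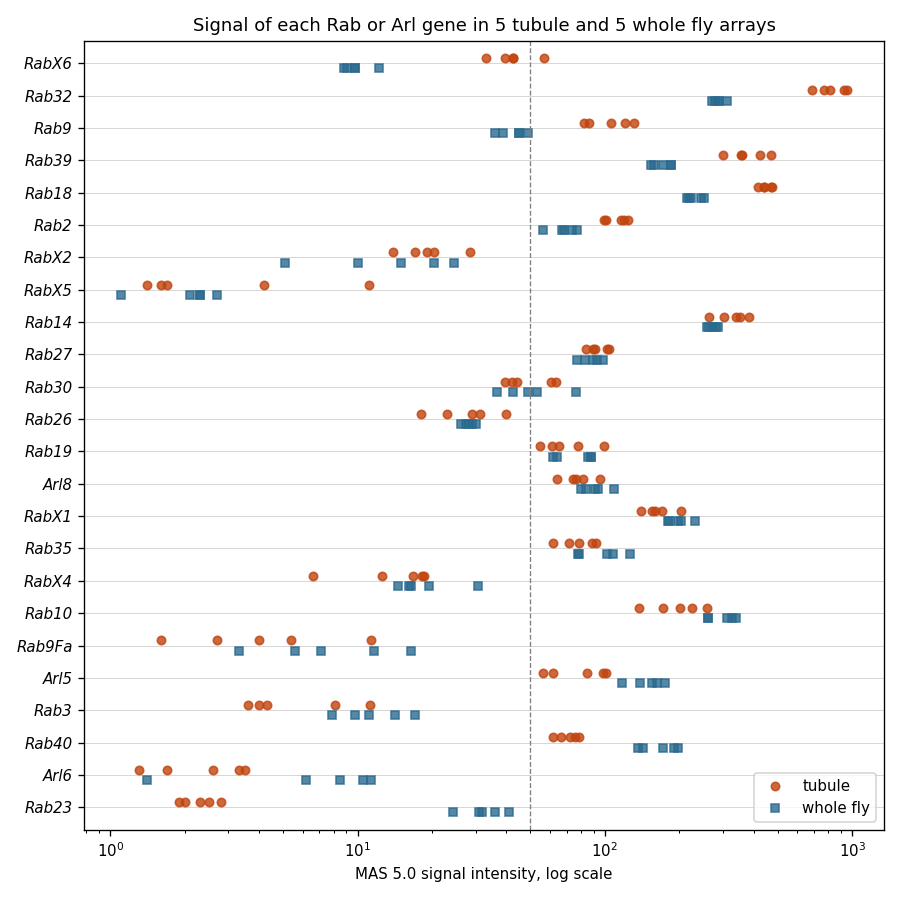
MAS 5.0 signal intensity (log scale) of the 24 GTPase genes in each of 5 tubule arrays (circles) and 5 whole fly arrays (squares), ordered by log2 fold change; the dashed line marks a signal of 50. The arrays of the groups separate for the 6 genes called higher and the 4 called lower, and 7 genes that were not called stay under 50 in every array.

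Of the groups by trafficking step, the late endosome and lysosome had the highest median log2 fold change, 1.22, from only 4 measured genes. Of these 4, 3 were higher in tubule and 0 lower. The shares over all probe sets were 16.8% higher and 36.3% lower, and 30.4% and 43.1% among those of mean signal at least 50. Rab7 is not among the 4, as it could not be assigned a probe set here. Rab32, the gene known from the eye colour mutant lightoid, directs cargo to lysosome-related organelles such as pigment granules. The signals of Rab32 were 814.3, 687.7, 957.9, 771.6 and 931.0 in tubule, against 290.8, 278.0, 272.4, 311.0 and 286.5 in whole flies. Every tubule array stood far above every whole fly array, and the whole fly arrays lay close together. Enrichment was 2.90 ± 0.466 (SD, n = 5 pairs), the log2 fold change 1.52 ± 0.109 (SE) and the adjusted p 1.3e-05, and 93.7% of all probe sets had a lower log2 fold change.

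Rab9 acts in the return of receptors from late endosomes to the Golgi. It had 85.9, 121.2, 82.6, 105.5 and 130.9 in tubule, against 38.8, 48.8, 36.1, 45.1 and 44.8 in whole flies. No whole fly array reached a signal of 50 while every tubule array exceeded 80, and the tubule and fly arrays of pairs 2 and 4 were the lowest of their groups. Enrichment was 2.45 ± 0.282 (SD, n = 5 pairs; log2 fold change 1.29 ± 0.148, SE, adjusted p = 0.00017). Rab39, placed on lysosomes and in autophagy in mammals, gave 299.3, 424.1, 472.0, 356.7 and 359.0 in tubule, against 185.5, 171.6, 157.7, 184.6 and 153.5 in whole flies. Its ratio varied more between pairs than that of Rab9, with an enrichment of 2.27 ± 0.528 (SD, n = 5 pairs; log2 fold change 1.15 ± 0.141, SE, adjusted p = 0.00024). Pair 2 had the lowest tubule and the highest whole fly signal of Rab39. Arl8, which links lysosomes to the motors that move them, did not pass: it had 64.2 to 95.9 in tubule (median 76.2), against 79.8 to 109.0 in whole flies (median 91.0), and its log2 fold change was -0.23, with a 95% interval of -0.61 to 0.15.

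**Figure D2:**
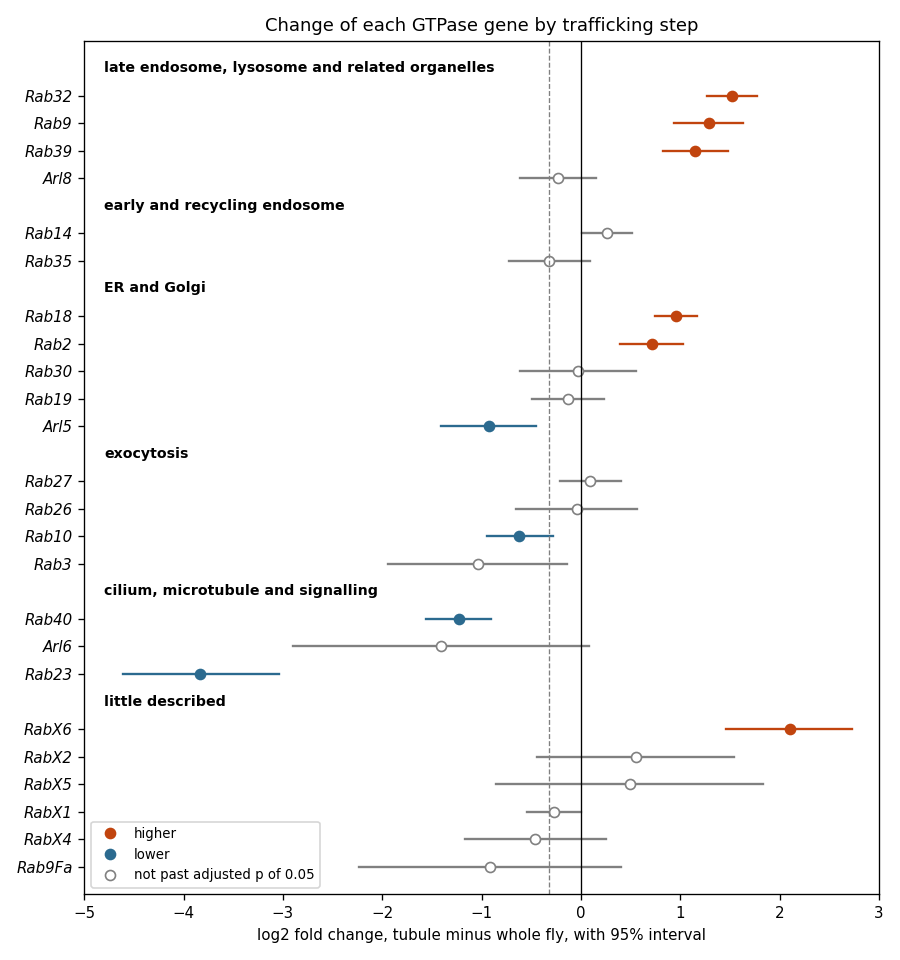
Log2 fold change (tubule minus whole fly) of each GTPase gene with its 95% interval from limma, grouped by trafficking step; filled points passed an adjusted p of 0.05, the solid line marks 0 and the dashed line the median of all probe sets (-0.32). In the late endosome and lysosome group 3 genes lie above 1 and Arl8 at -0.23.

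Of GTPases of the endoplasmic reticulum and Golgi, 2 of 5 were higher and 1 was lower, beside 16.8% and 36.3% of all probe sets. Rab18, a protein of the endoplasmic reticulum and lipid droplets, had 417.2, 471.1, 476.3, 438.7 and 441.3 in tubule, against 214.9, 222.8, 251.8, 245.6 and 218.5 in whole flies. It was the most even of the called genes between tubule arrays (coefficient of variation 5.47%), and its enrichment was 1.95 ± 0.125 (SD, n = 5 pairs; log2 fold change 0.96 ± 0.092, SE, adjusted p = 6.3e-05). Rab2 acts at the Golgi and, in flies, in the delivery of cargo to lysosomes. It had 124.6, 98.8, 119.4, 100.8 and 116.7 in tubule, against 68.3, 73.7, 67.4, 56.0 and 77.3 in whole flies, so that every tubule array stood above every fly array by a smaller margin (enrichment 1.65 ± 0.214, SD, n = 5 pairs; log2 fold change 0.71 ± 0.139, SE, adjusted p = 0.0029). With RpL32 held constant Rab2 did not pass (log2 fold change 0.37, adjusted p = 0.052).

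Arl5, known in mammals from the trans-Golgi, was lower. Its signals were 61.9, 84.9, 98.2, 56.1 and 100.7 in tubule, against 154.9, 139.3, 117.6, 175.6 and 162.5 in whole flies (enrichment 0.557 ± 0.203, SD, n = 5 pairs; log2 fold change -0.93 ± 0.209, SE, adjusted p = 0.0059). The ratio moved between pairs: the tubule signals of pairs 2 and 5 were the lowest of their group, and pair 4 had the smallest gap. Tubule arrays 4 and 6, those with the least midgut enzyme signal, had 98.2 and 100.7, and array 3, with the most, had 84.9. The summed testis signal of the tubule arrays (1369, 994, 757, 1828 and 456) ran in the reverse order of Arl5. Tubule arrays 2 and 5 also had the highest accessory gland sums (4529 and 4221). The part of RNA from other tissues in the difference of Arl5 was not tested. In pairs 4 and 6 alone the log2 fold change was -0.48 (adjusted p = 0.19). Rab19 is the immediate neighbour of Arl5 on the RefSeq map, where the ends of the genes share 6 bases. Rab19, a Golgi protein in mammals, did not pass, with 54.6 to 99.2 in tubule (median 65.2), against 61.6 to 88.3 in whole flies (median 85.3), a log2 fold change of -0.13 and a 95% interval of -0.49 to 0.23. Rab30, a Golgi protein, also did not pass (39.3 to 63.4 in tubule, against 36.6 to 76.6 in whole flies; log2 fold change -0.03, 95% interval -0.61 to 0.55).

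The early and recycling endosome was represented by 2 genes, and 0 of them passed, beside 53.1% of all probe sets in either direction. Rab14, of endosomes and phagosomes, had 264.3 to 381.7 in tubule (median 339.8), against 258.2 to 285.9 in whole flies (median 274.8). It was higher in tubule in 5 of 5 pairs, though pair 5 was nearly equal (264.3 in tubule, 263.4 in whole fly). Its groups overlapped, at a log2 fold change of 0.26 (95% interval 0.01 to 0.51, adjusted p = 0.078). Rab35, which returns cargo to the plasma membrane and acts on actin there, had 61.5 to 92.4 in tubule (median 78.7), against 77.6 to 126.6 in whole flies (median 102.0), and its log2 fold change was -0.32 (95% interval -0.72 to 0.09, adjusted p = 0.16).

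The best known proteins of this step, Rab5 of the early endosome and Rab4 of rapid recycling, are among the genes without an annotated probe set, but the study's own list of tubule-enriched probe sets gives a name to 1 probe set of each. That list was drawn from these arrays by enrichment, so the direction of their values is set by the choice, and they are given as a description outside the counts. The Rab5 probe set had 808.3, 893.0, 1011.1, 839.9 and 950.3 in tubule, against 379.7, 398.3, 381.5, 355.7 and 348.6 in whole flies (enrichment 2.42 ± 0.258, SD, n = 5 pairs). The Rab4 probe set had 317.9, 326.5, 412.0, 362.3 and 396.2 in tubule, against 118.4, 140.2, 126.3, 134.5 and 140.7 in whole flies (enrichment 2.76 ± 0.336, SD, n = 5 pairs). Both probe sets were even within each group, with coefficients of variation of 9.11% and 11.4% in tubule and 5.45% and 7.25% in whole flies.

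Of 4 GTPases of regulated and constitutive exocytosis, 1 was lower and 0 higher, beside 36.3% and 16.8% of all probe sets. Rab10, which delivers secretory vesicles to the plasma membrane and in follicle cells the proteins of the basement membrane, had 225.7, 137.8, 259.6, 200.8 and 171.8 in tubule, against 340.5, 261.8, 261.2, 325.4 and 310.8 in whole flies. The groups were separated only narrowly, since pair 4 was nearly equal in its tubule and fly arrays. Enrichment was 0.671 ± 0.188 (SD, n = 5 pairs; log2 fold change -0.62 ± 0.147, SE, adjusted p = 0.0078). The second probe set of Rab10, of lower signal, did not follow: it had 39.9 to 77.9 in tubule, against 51.3 to 63.4 in whole flies (log2 fold change 0.03, adjusted p = 0.93), and with both probe sets averaged Rab10 did not pass (-0.30, adjusted p = 0.16). In pairs 4 and 6 alone its log2 fold change was -0.43 (adjusted p = 0.22).

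Rab3, Rab26 and Rab27 serve synaptic vesicles and secretory granules. Rab27 had nearly the same level in both groups, 83.8 to 104.0 in tubule (median 91.6), against 77.5 to 98.4 in whole flies (median 89.4), with a log2 fold change of 0.09 and a 95% interval of -0.21 to 0.40. Rab26 had 18.1 to 39.9 in tubule, against 26.1 to 30.1 in whole flies (log2 fold change -0.04, 95% interval -0.65 to 0.56); it spread more in tubule than in fly arrays. Rab3, the synaptic vesicle Rab, was close to the bottom of the scale in both groups, at 4.0, 4.3, 8.1, 3.6 and 11.2 in tubule, against 7.9, 17.0, 11.1, 9.8 and 14.1 in whole flies. It was lower in tubule in 5 of 5 pairs, yet its log2 fold change of -1.04 ± 0.392 (SE) did not pass (adjusted p = 0.053), beside 9 neuronal marker genes that are near the bottom of the scale too.

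**Figure D3:**
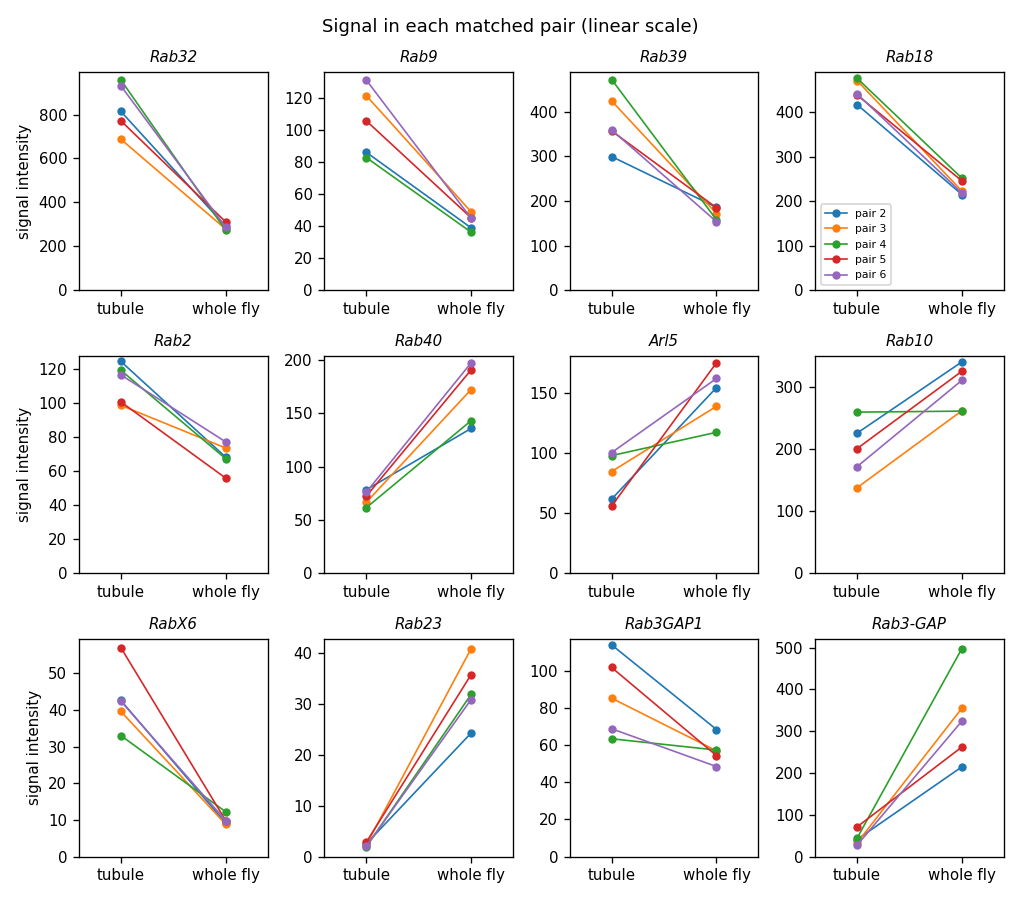
Signal intensity (linear scale from 0) in tubule and whole fly arrays of each of the 5 matched pairs, joined by a line for a pair, for the 8 GTPase genes with every array given by rule and for RabX6, Rab23, Rab3GAP1 and Rab3-GAP. All 5 lines run down from tubule to whole fly for Rab32, Rab9, Rab39, Rab18, Rab2, RabX6 and Rab3GAP1. They run up for Rab40, Arl5, Rab10, Rab23 and Rab3-GAP.

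Of 3 genes linked to cilia, the cytoskeleton or signalling, 2 were lower and 0 higher, beside 36.3% and 16.8% of all probe sets. Rab40, whose vertebrate relatives carry a SOCS box and serve as ubiquitin ligase adaptors, had 78.3, 66.5, 61.5, 72.3 and 76.0 in tubule, against 135.8, 172.3, 143.1, 190.7 and 197.3 in whole flies. The tubule arrays lay close together and all below the fly arrays (enrichment 0.431 ± 0.0837, SD, n = 5 pairs; log2 fold change -1.23 ± 0.141, SE, adjusted p = 0.00016). Rab23 acts in planar cell polarity in the fly and in hedgehog signalling in the mouse. It had the lowest log2 fold change of the 24 genes, -3.83 ± 0.341 (SE, adjusted p = 4.3e-05), with signals of 2.5, 2.3, 1.9, 2.8 and 2.0 in tubule, against 24.3, 40.9, 31.9, 35.8 and 30.9 in whole flies (enrichment 0.0723 ± 0.0190, SD, n = 5 pairs). All 10 signals were under 50, so with such signals set to 50 no difference was left, and the size of the ratio depends on tubule signals at the bottom of the scale. Arl6, a protein of the ciliary BBSome pathway, did not pass (1.3 to 3.5 in tubule, against 1.4 to 11.3 in whole flies; log2 fold change -1.41, adjusted p = 0.10). Whole fly array 2 had the low value of 1.4, and without pair 2 Arl6 passed (-2.09, adjusted p = 0.012).

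Among 6 genes with little described function, 1 was higher and 0 lower, beside 16.8% and 36.3% of all probe sets. RabX6 had the highest log2 fold change of the 24 genes, 2.10 ± 0.276 (SE, adjusted p = 0.00034), with 42.6, 39.6, 33.0, 57.0 and 42.4 in tubule, against 9.1, 8.8, 12.2, 9.8 and 9.8 in whole flies (enrichment 4.41 ± 1.12, SD, n = 5 pairs). The groups were well apart, but only 1 tubule array exceeded 50, and with signals under 50 set to 50 RabX6 did not pass (log2 fold change 0.04, adjusted p = 0.60). RabX6 and Rab23 are given in full by choice, after their values were seen. RabX1 had 140.3 to 203.7 in tubule (median 159.2), against 179.8 to 230.9 in whole flies (median 198.3), with a log2 fold change of -0.27 (95% interval -0.54 to 0.00, adjusted p = 0.09). RabX2, RabX4, RabX5 and Rab9Fa were under 50 in all 10 arrays, with log2 fold changes of 0.55, -0.46, 0.49 and -0.92 and wide intervals, the widest of them -0.86 to 1.83 for RabX5.

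Of the 4 genes that encode no GTPase, 1 was higher and 2 were lower, beside 16.8% and 36.3% of all probe sets. Rab3GAP1 and Rab3-GAP encode the catalytic and the regulatory subunit of a complex that switches off Rab3 and, in human cells, acts as an exchange factor for Rab18. The regulatory subunit gene, Rab3-GAP, was lower, with 40.7, 32.5, 43.8, 70.9 and 27.1 in tubule, against 214.7, 355.0, 497.7, 262.2 and 324.0 in whole flies (enrichment 0.145 ± 0.0830, SD, n = 5 pairs; log2 fold change -2.96 ± 0.268, SE, adjusted p = 4.6e-05). Among whole fly arrays Rab3-GAP had the same order as the summed testis signal (5929, 9219, 12893, 6775 and 8530), and tubule array 5 was the highest and tubule array 6 the lowest in both; the part of testis RNA in it was not tested. The catalytic subunit gene, Rab3GAP1, lay the other way, with 114.3, 85.5, 63.6, 102.1 and 69.0 in tubule, against 68.6, 57.1, 57.5, 54.5 and 48.6 in whole flies (enrichment 1.51 ± 0.286, SD, n = 5 pairs; log2 fold change 0.58 ± 0.164, SE, adjusted p = 0.018). Its groups overlapped, and its 3 highest tubule signals were in arrays 2, 3 and 5, which had the highest midgut enzyme and testis signals. The summed muscle signal of the tubule arrays (1275, 1039, 686, 1074 and 850) had the same order as Rab3GAP1. Whole fly arrays did not share that order. Their muscle sums were 8432 to 9461, and array 2 had the lowest of these and the highest Rab3GAP1 signal. The part of RNA from other tissues in Rab3GAP1 was not tested.

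Rab3GAP1 had log2 fold changes of about the same size without pair 2 (0.53, adjusted p = 0.05), pair 3 (0.57, adjusted p = 0.05) or pair 5 (0.49, adjusted p = 0.063), though it did not pass. It also did not pass in pairs 4 and 6 alone (log2 fold change 0.33, adjusted p = 0.47) or with RpL32 held constant (0.24, adjusted p = 0.31), and its second probe set, of lower signal, was at 0.04 (adjusted p = 0.90). Arl6IP1, which shapes the endoplasmic reticulum, was lower, with 65.3, 52.6, 67.2, 67.6 and 52.6 in tubule, against 157.2, 124.8, 124.8, 154.3 and 147.4 in whole flies (enrichment 0.434 ± 0.0659, SD, n = 5 pairs; log2 fold change -1.22, adjusted p = 0.00017). Rab3-GEF, an exchange factor for Rab3, did not pass (26.0 to 64.8 in tubule, against 42.1 to 50.6 in whole flies; log2 fold change -0.21, 95% interval -0.74 to 0.31).

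The proteins that load, switch and read these GTPases were taken from 6 lists. Of their 90 measured genes, 20 were higher and 20 lower, shares of 22.2% and 22.2% beside the 16.8% and 36.3% of all probe sets, and the median log2 fold change was -0.05. Rab proteins are prenylated with the help of an escort protein and then carried by GDI; the list for this also holds the genes of the farnesyl transferase and the myristoyl transferase, which attach lipids to other proteins. Of its 6 genes 4 were higher and 1 lower (median 0.45). RabGGTa, a subunit of the Rab prenyl transferase, averaged 103 ± 19.2 in tubule and 55.3 ± 7.62 in whole flies (SD, n = 5; log2 fold change 0.89, adjusted p = 0.0017). Fnta, the alpha subunit gene of the farnesyl transferase, was at 477 ± 45.9 in tubule and 258 ± 17.1 in whole flies (0.88, adjusted p = 0.00016). Nmt, which attaches myristate to Arf proteins among others, was the lower gene (396 ± 47.4 in tubule, 514 ± 68.0 in whole flies; -0.37, adjusted p = 0.023). Rep, the escort protein gene, and Gdi were higher as well (0.61, adjusted p = 0.0083, and 0.29, adjusted p = 0.048).

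Of 20 genes for exchange factors 3 were higher and 4 lower (median -0.08), beside 16.8% and 36.3% of all probe sets. The Arf exchange factor siz averaged 1043 ± 126 in tubule and 435 ± 8.53 in whole flies (SD, n = 5; log2 fold change 1.25, adjusted p = 1.7e-05). Sec71, also an Arf exchange factor, was higher (0.58, adjusted p = 0.017). Efa6, an exchange factor for Arf6, was lower (9.02 ± 7.30 in tubule, 29.5 ± 3.21 in whole flies; -2.15, adjusted p = 0.0074), as was Mon1 (27.7 ± 9.73 in tubule, 61.7 ± 17.8 in whole flies; -1.19, adjusted p = 0.0035), which forms with Ccz1 the exchange factor for Rab7. Ccz1 itself did not pass (0.37, adjusted p = 0.13).

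Of 17 genes for GTPase activating proteins, 4 were higher and 8 lower, the list with the lowest median (-0.43). The median over all probe sets was close to this, at -0.32, with 16.8% higher and 36.3% lower. The Rab GAP gene wkd averaged 527 ± 39.8 in tubule and 204 ± 11.2 in whole flies (SD, n = 5; log2 fold change 1.37, adjusted p = 1.1e-05), and CenG1A, an Arf GAP gene, 53.3 ± 6.95 in tubule and 24.0 ± 7.04 in whole flies (1.21, adjusted p = 0.0049). The lowest of the genes called were plx, a gene with a TBC domain (7.14 ± 2.35 in tubule, 65.7 ± 18.2 in whole flies; -3.24, adjusted p = 5.6e-05), and Rab3-GAP, described above. The 2 GAP genes Rab3-GAP and Rab3GAP1 and the exchange factor gene Rab3-GEF are counted both in these lists and among the 28 genes that fit the names.

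**Figure D4:**
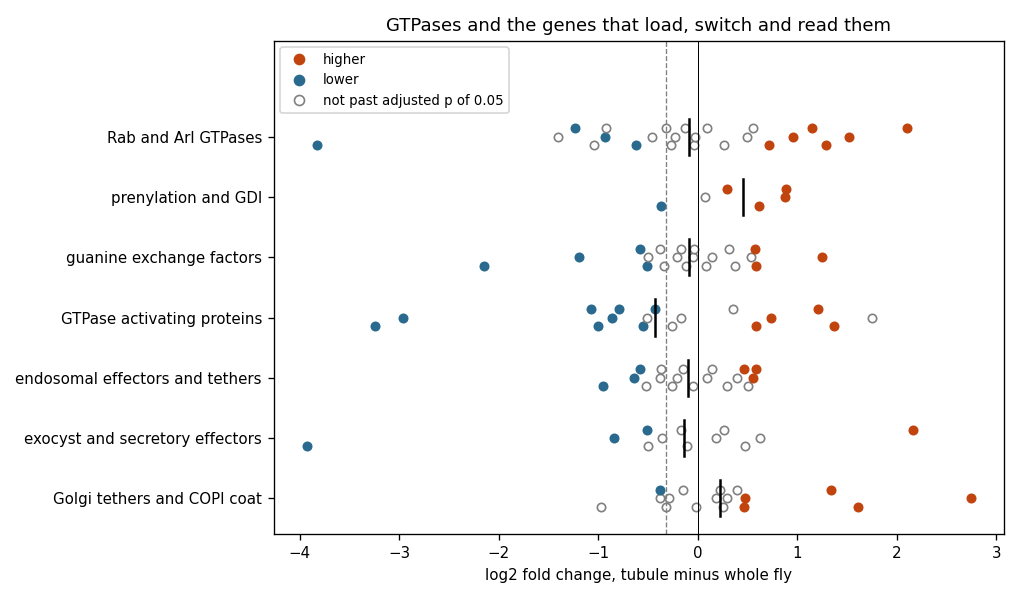
Log2 fold change (tubule minus whole fly) of the 24 GTPase genes and of 6 lists of genes that process, switch or bind such GTPases, a point for each gene; filled points passed an adjusted p of 0.05, black bars are list medians and the dashed line is the median of all probe sets (-0.32). The medians run between -0.43 for GTPase activating proteins and 0.45 for prenylation and GDI.

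Active GTPases act by recruiting effectors and tethers, and those of endosomes had log2 fold changes between -0.95 and 0.58. Of 18 endosomal effector and tether genes, 3 were higher and 3 lower (median -0.10), beside 16.8% and 36.3% of all probe sets. At the upper end were Rip11, a Rab11 effector (log2 fold change 0.58, adjusted p = 0.0071), and Pi3K59F (0.55, adjusted p = 0.019). Pi3K59F is the kinase that makes the lipid of early endosomes. At the lower end were Vps33B (-0.95, adjusted p = 0.016) and lt (-0.64, adjusted p = 0.045), a tether subunit of late endosome fusion. Of 12 genes of the exocyst and secretory effectors 1 was higher and 3 lower (median -0.14), beside 16.8% and 36.3% of all probe sets. The higher gene, btsz, encodes a synaptotagmin-like protein of epithelial apical domains and averaged 356 ± 33.6 in tubule and 79.8 ± 9.34 in whole flies (SD, n = 5; log2 fold change 2.16, adjusted p = 5.2e-06). The synaptic priming gene unc-13 was at 3.12 ± 4.64 in tubule and 25.9 ± 6.25 in whole flies (-3.93, adjusted p = 0.00074), and the exocyst gene Sec15 at 15.9 ± 8.14 in tubule and 26.3 ± 8.41 in whole flies (-0.84, adjusted p = 0.049).

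The last list held 17 genes, those of Golgi tethers and coats and the GTPase gene dnd. Of these, 5 were higher and 1 lower (median 0.22), beside 16.8% and 36.3% of all probe sets. Without dnd 4 of 16 were higher and 1 lower. The golgin genes Gmap and Golgin245 were at log2 fold changes of 1.34 (adjusted p = 8.6e-05) and 1.61 (adjusted p = 0.0003); Golgin245 averaged 78.5 ± 13.3 in tubule and 25.8 ± 5.19 in whole flies (SD, n = 5). The highest of the list was dnd, the fly Arl3, an Arf family GTPase gene that its symbol kept out of the 24; it averaged 137 ± 17.3 in tubule and 20.9 ± 5.43 in whole flies (enrichment 7.06 ± 2.79, SD, n = 5 pairs; log2 fold change 2.74, adjusted p = 2.8e-05). Of the COPI subunits, the coat that Arf1 recruits, epsilonCOP passed (0.46, adjusted p = 0.029), while alphaCOP, betaCOP, gammaCOP and deltaCOP had log2 fold changes of 0.22, 0.18, 0.29 and 0.25 and did not. The lower gene was Sec31, of the COPII coat (177 ± 36.3 in tubule, 228 ± 28.7 in whole flies; -0.38, adjusted p = 0.022).

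The direction of small changes rested on the scaling of the arrays, which moved the median of all probe sets to 0.18 under quantile normalization and to -0.66 with RpL32 held constant. The 10 called GTPase genes kept their direction under both, and 9 of them were called under both. The split of calls was 6 higher and 4 lower as deposited, 9 higher and 4 lower after quantile normalization (29.7% and 24.7% of all probe sets) and 5 higher and 9 lower with RpL32 held constant (10.4% and 46.2%). The calls gained with RpL32 held constant were Arl6, Arl8, Rab3, Rab35 and RabX1, all lower, and those gained after quantile normalization were Rab26, Rab27 and RabX2, all higher. All 10 called genes also passed with each pair left out in turn. In pairs 4 and 6 alone, where tubule arrays had the least midgut enzyme signal, 5 of the 24 were higher and 2 lower (11.6% and 25.3% of all probe sets), and 3 of the 10 called genes did not pass. The log2 fold change of Rab2 was the same as in all pairs (0.71, adjusted p = 0.077), while Arl5 and Rab10 had the smaller values given above. With signals under 50 set to 50, 5 were higher and 3 lower (12.1% and 17.6%).

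**Figure D5:**
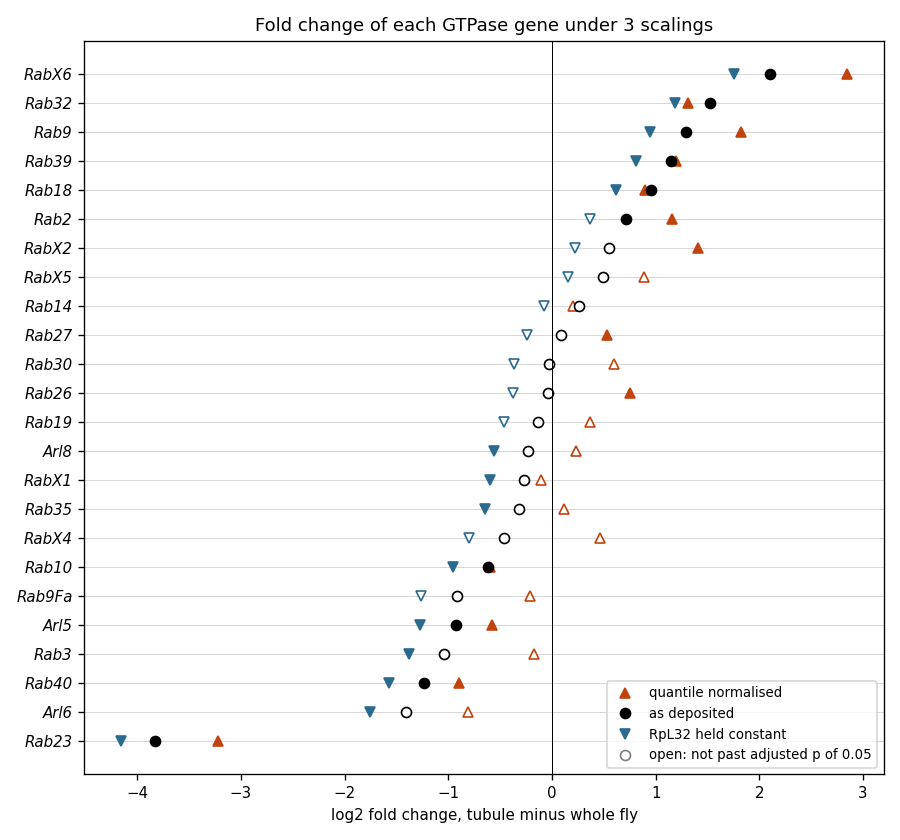
Log2 fold change (tubule minus whole fly) of each GTPase gene after quantile normalization (triangles up), as deposited (circles) and with RpL32 held constant (triangles down); open symbols did not pass an adjusted p of 0.05. Rab32, Rab9, Rab39, Rab18 and RabX6 stay above 0 and filled under all 3, and Rab40, Rab10, Arl5 and Rab23 stay below 0 and filled.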

How the data were processed

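Tubule and whole fly RNA was hybridised to the Affymetrix Drosophila genome array. The deposited signal intensities were made by the authors with MAS 5.0 (background subtraction, robust summary of perfect match against mismatch probes per probe set, linear scaling); they hold no detection calls. Each array had a mean of 100.0 after trimming at both ends, and no further normalization was applied. After 44 control probe sets were left out, 13966 were tested, of which 12443 name 1 gene in the platform annotation, 327 several and 1196 none; 12394 were matched to the RefSeq table (Release 6) for current symbols. A gene took its probe set of highest mean signal.

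Log2 signals were fitted with limma 3.58.1 (R 4.3.3; lmFit, then eBayes with its intensity trend). Pairs entered as a blocking factor, with Benjamini-Hochberg adjustment over all probe sets. The study's methods took arrays of one culture as matched pairs; deviations from the group means correlated at only -0.0894 to 0.0914 within the 5 pairs (6125 probe sets of mean signal at least 50). For each tubule array, the highest of its correlations with fly arrays of other numbers was larger, at 0.111 to 0.167. The fit was also run on simulated data with independent normal noise and no pair effect. That run cannot test the pairing or the effect of RNA from other tissues. The number of arrays and low signals limit the precision. In the main fit p sets the mean difference against its variation between pairs of pooled preparations, array noise included. It does not speak to variation between single animals. Alternatives were the scaling, low signals, the block, the trend, the probe set, each pair left out and the methods' t-test, run here on the MAS 5.0 signals and without the fold and difference filters that the study set beside it on its dChip values.

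Every member was named; every array is given for up to 8 GTPase genes of the highest and 8 of the lowest log2 fold change among those called with a group mean of at least 50, and each pathway list shows its 2 highest and 2 lowest called genes. Members and lists were chosen with earlier results of these data known. Nucleotide and protein sequences were not used here.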

Additional observations from a re-analysis of the deposited data

Results flagged for a closer look

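Of 100 groups of 5 arrays looked at (a gene in tubule or in whole fly), 4 held an array that stood far from the others by Dixon's test, and chance flags about 1 in 20 groups. RabX5 had 11.1 in tubule array 6 and 1.4 to 4.2 in the other tubule arrays. For unc-13 the signal was 11.4 in tubule array 3, against 0.8 to 1.5 in the rest of the tubule arrays. The Rab GAP gene wkd had 595.1 in tubule array 4 and 498.0 to 526.0 in the others. Sec15 had 11.4 in whole fly array 4, below the 28.9 to 32.1 of the other whole fly arrays.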

How the results depend on the processing

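Of the 24 GTPase genes, 11 had the same result under every alternative in which they were tested (3 of these, Rab9Fa, RabX4 and RabX5, fell below the mean signal of 50 in that alternative). The 6 higher and 4 lower GTPase genes became 5 and 9 with RpL32 held constant and 5 and 2 in pairs 4 and 6 alone, an alternative chosen after the marker signals, and a first run on pairs 2, 4 and 6, had been seen. Over all probe sets 2342 were higher and 5076 lower; under quantile normalization 4148 were higher, and with RpL32 held constant 1451, beside 2453 lower with signals under 50 set to 50 and 2642 lower among probe sets of mean signal at least 50. The 20 higher and 20 lower pathway genes became 38 and 6 by quantile normalization, 9 and 38 with RpL32 constant and 11 and 4 in pairs 4 and 6; 10 were lower with signals under 50 set to 50 and 13 by the methods' t-test at an unadjusted p under 0.01. Rab26, at -0.04 as deposited, was at 0.75 after quantile normalization (adjusted p = 0.038). The cause of these shifts was not tested beyond the move of the median given above. With each pair left out, 6 GTPase genes were higher and 4 to 5 lower, 1962 to 2222 probe sets higher and 4457 to 4877 lower, and 14 to 19 pathway genes higher and 11 to 17 lower (11 without pair 6, 12 without pair 3 and 13 without pair 5). Without the pair as a replicate block, 6 GTPase genes were higher and 5 lower; Rab3 then passed (adjusted p = 0.044), as it did without the trend (adjusted p = 0.024), and no other GTPase call changed without the block. With 16 added to each signal, 6 were higher and 6 lower, with Rab3 (adjusted p = 0.036) and Arl6 (adjusted p = 0.048) gained. The methods' t-test gave 6 higher and 4 lower at that unadjusted p, and 6 and 5 after Benjamini-Hochberg adjustment.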
